A study of Mus musculus with 36 samples.

Results

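The genes described here encode the enzymes that break down pyrimidines or return them to the nucleotide pool: Upp1, Tymp, Cda, Uck2, Dpyd, Dpys and Upb1. The 7 genes were chosen by pathway with earlier results of these data known, among them the lower Dpyd intensity of WT day 15 colon, and for each the probe set was selected on its mean log2 intensity across the 36 arrays, the brightest being kept. Of these, 5 were measured, among 17097 genes of the series with a probe set of 1 gene symbol. The probe set of Tymp also carries the symbol Sco2, so no value is given for it, and Cda was not analysed here. The series measured RNA of the mouse colon on microarrays in 8 groups. The labels give every group, day 63 tumors included, an age of 6 to 8 weeks. This cannot be the age of the tumor mice at sampling, so ages at sampling may differ between stages. KO mice lack a working Il17rc, the gene of an IL-17A and IL-17F receptor chain, and WT mice carry it. The treatment given for both genotypes was azoxymethane, a colon carcinogen, followed by 3 cycles of 5 days of 3% dextran sulfate sodium in the water, which injures the colon lining, and 14 days of plain water. The whole course outlasts day 15, and the labels do not say how much of it the day 7 and day 15 mice had received. KO untreated (day 0), KO day 7, KO day 15, WT untreated, WT day 7 and WT day 15 had 4 arrays each, and KO tumor and WT tumor (day 63) had 6 each. The labels used here give no strain, no sex and no region of the colon, and each array was taken as 1 animal, so p-values cover only the variation among these samples.

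Uridine and thymidine are split into base and sugar by the phosphorylases Upp1 and Tymp, cytidine is first deaminated to uridine by Cda, and uridine and cytidine kinase 2, Uck2, instead phosphorylates both nucleosides so that they can be used again. Free uracil and thymine are degraded in sequence by Dpyd, dihydropyrimidine dehydrogenase, the rate-limiting step, by Dpys, dihydropyrimidinase, and by Upb1, beta-ureidopropionase, which releases beta-alanine or its methylated form. Dpyd also inactivates the cancer drug 5-fluorouracil, and Upp1 and Uck2 can convert such drugs or related analogs.

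Intensities are the deposited values on a linear scale, and levels of different probe sets are not compared with each other. Log2 differences with their standard error (SE) come from a limma model over all genes and arrays, and a gene was called higher or lower at a Benjamini-Hochberg adjusted p under 0.05 over all 17097 genes. Il17rc checked the genotype labels: it was 7 to 15 on the KO arrays other than those labelled day 7, and 76 to 515 on WT arrays. Replicate 1 labelled KO day 7 had 331 and replicate 2 had 44, so results for this group are stated for the arrays labelled KO day 7. Krt5, a keratin of squamous epithelium that the colon lining lacks, exceeded 100 on 7 arrays, namely KO tumor replicate 2, replicates 1 and 2 labelled KO day 7, and replicates 1 and 4 of both WT untreated and WT day 7. Absorptive colonocyte genes were bright in all 8 groups, with summed intensities over 12 genes of 9276 to 20664 in KO tumors, 9494 to 24135 in WT tumors and 14533 to 34236 elsewhere. In whole tissue, fewer cells of a type and less RNA per cell cannot be told apart.

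The promoter sequences of the pair of genes with the largest differences between genotypes are shown, since both genes differed in untreated colon in opposite directions. They are the 250 bases before the annotated start, from RefSeq on GRCm38.p6, plus strand. The Upp1 window (the most upstream of 3 annotated starts) is chr11:9117758-9118007, with an AP-1 motif in capitals, and the Dpyd window is chr3:118561930-118562179, with both GC boxes, read on the other strand, in capitals.
Upp1: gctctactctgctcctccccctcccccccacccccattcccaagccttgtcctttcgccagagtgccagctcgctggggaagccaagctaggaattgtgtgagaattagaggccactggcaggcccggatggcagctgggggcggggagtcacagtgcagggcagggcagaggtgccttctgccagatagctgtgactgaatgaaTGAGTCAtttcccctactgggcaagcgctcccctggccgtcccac
Dpyd: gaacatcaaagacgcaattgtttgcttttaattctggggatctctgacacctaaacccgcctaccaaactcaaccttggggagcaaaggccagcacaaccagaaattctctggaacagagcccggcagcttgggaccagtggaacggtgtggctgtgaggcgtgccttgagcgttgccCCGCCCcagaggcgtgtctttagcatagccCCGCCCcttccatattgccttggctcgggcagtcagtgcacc
The 6 motifs searched on both strands were the gamma-activated site TTCNNNGAA, the core of the interferon response element (GAAA, then any pair of bases, then GAAA), AP-1 TGANTCA, the GC box GGGCGG, the E-box CACGTG and the cyclic AMP element TGACGTCA. Of 32851 promoters of the same length, 7.02%, 2.98%, 6.75%, 32.7%, 6.02% and 1.55% hold these motifs in that order. Upp1 held 1 AP-1 motif, at position -45 from the start, and 1 GC box at -111, and neither of the interferon motifs. Dpyd held 2 GC boxes and none of the other motifs. Uck2 held 4 GC boxes, of which a pair overlapped, and Cda held 1, while Tymp and Upb1 held none of the 6 motifs. These are matches of letters in a window and no measurement of binding.

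Upp1, which splits uridine into uracil and ribose phosphate, was high in untreated KO colon and low at the other end of the protocol. Its intensity was 3469, 3788, 3916 and 4032 in untreated KO colon, against 540, 451, 349 and 469 in untreated WT colon. All 4 KO arrays lay above all 4 WT arrays, by 3.08 ± 0.46 log2 units, or 8.43-fold (limma adjusted p = 3.64e-05). Arrays labelled KO day 7 had 362, 464, 460 and 431, against 639, 782, 771 and 726 in WT at day 7. Here the KO arrays lay below the WT arrays without overlap, but the log2 difference of -0.73 ± 0.46 did not pass (adjusted p = 0.597). At day 15 the values were 2770, 2952, 2097 and 1218 in KO and 1115, 1029, 1100 and 282 in WT. The lowest KO array was above the highest WT array, and the log2 difference was 1.45 ± 0.46 (adjusted p = 0.191). With the replicate number as a block, within these groups alone, the adjusted p was 0.0314, and replicate numbers deviated together at this stage. Replicate 4 was the lowest array of both groups, and without both the difference was 1.23 (adjusted p = 0.284). KO tumors ran from 147 over a median of 226.5 to 999, and WT tumors from 114 over 190.5 to 415. These ranges overlapped, with a log2 difference of 0.53 ± 0.37 and an adjusted p close to 1.

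**Figure D1:**
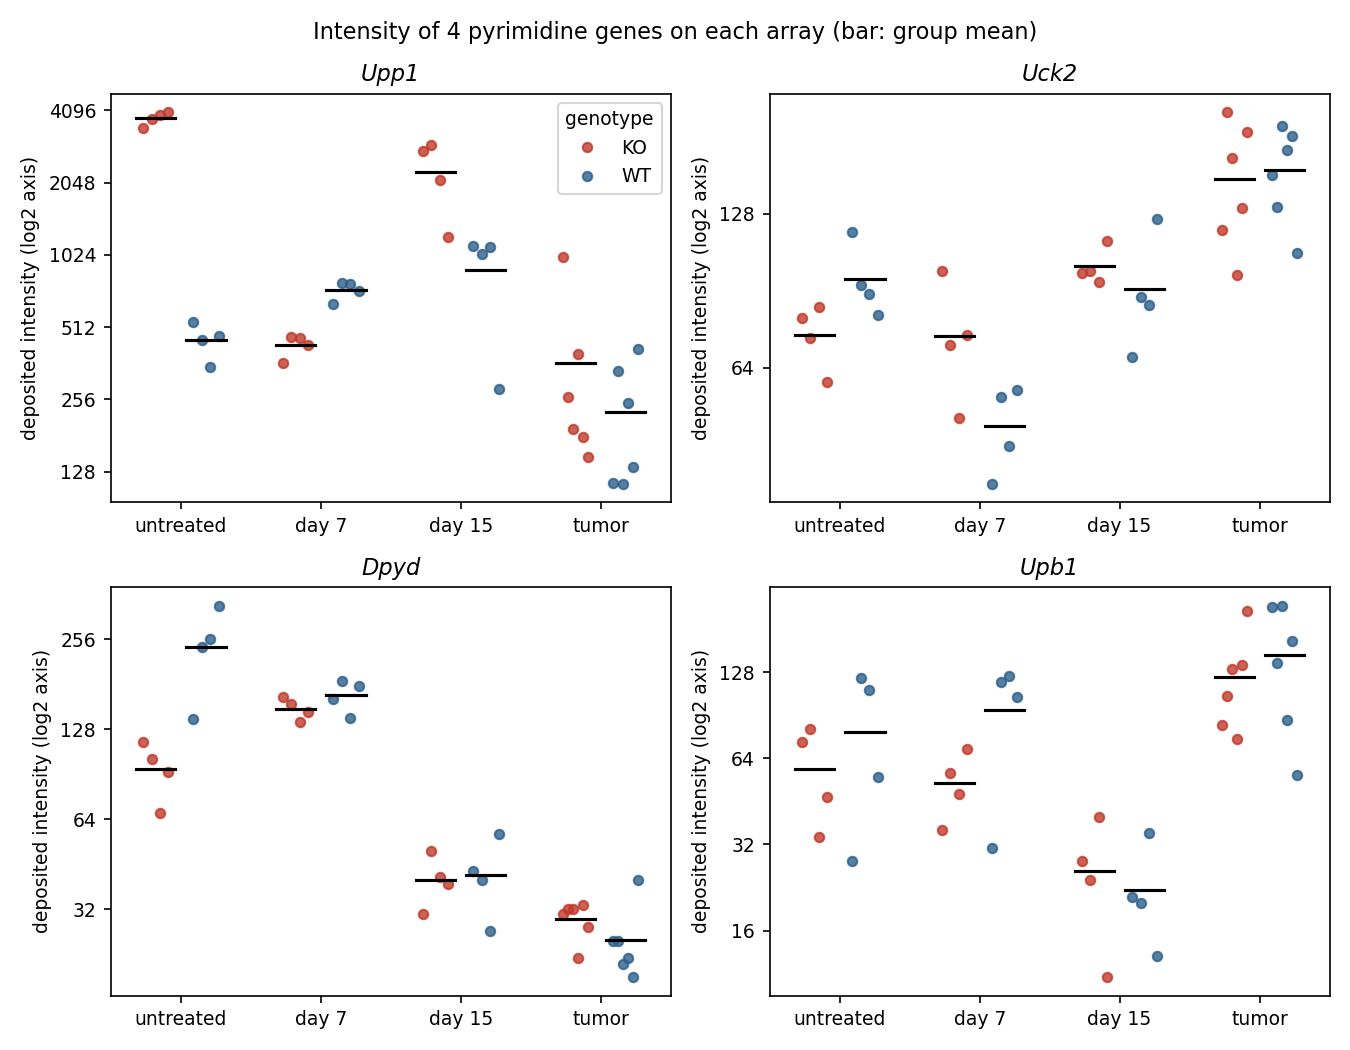
Deposited intensity (log2 axis) of Upp1, Uck2, Dpyd and Upb1 on each of the 36 arrays, by stage, with KO in red left of WT in blue. Each point is 1 array and each bar is the group mean. Upp1 sits at 3469 to 4032 in untreated KO colon and at 349 to 540 in untreated WT colon, and Dpyd lies at 57 or below in all day 15 and tumor arrays.

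Within KO, Upp1 fell in arrays labelled KO day 7 relative to untreated KO colon by 3.09 ± 0.46 log2 units (adjusted p = 1.76e-05). The change in KO minus that in WT was -3.81 ± 0.65 for the arrays labelled day 7 (adjusted p = 0.000481). This value includes the untreated difference between genotypes of 3.08, and at day 7 itself the genotypes did not pass (-0.73 ± 0.46, adjusted p = 0.597). The tumor value below shares the same untreated arrays. KO day 15 colon did not pass against untreated KO colon (-0.84 ± 0.46, adjusted p = 0.359). KO tumors were lower than untreated KO colon by 3.72 ± 0.42 log2 units (adjusted p = 1.38e-07), and lower than KO day 15 colon by 2.89 ± 0.42 (adjusted p = 1.73e-05). The call against day 15 ended with the replicate number as a block, within these groups alone (adjusted p = 0.0582), and the numbers did not pair these samples. In WT, neither day 7 (0.72 ± 0.46, adjusted p = 0.529) nor day 15 (0.79 ± 0.46, adjusted p = 0.382) passed against untreated WT colon. WT tumors had less Upp1 than WT day 15 colon (-1.97 ± 0.42, adjusted p = 0.000806, and 0.0604 with the same kind of block). They also had less than untreated WT colon (-1.18 ± 0.42, adjusted p = 0.0381). That last call ended without WT untreated replicate 1, 2 or 4 or WT tumor replicate 1, 3 or 5 (adjusted p between 0.071 and 0.0932), and without the 7 Krt5 arrays (adjusted p = 0.272). The tumor change in KO minus that in WT was -2.54 ± 0.59 (adjusted p = 0.0229). It no longer passed without any of 9 of the 20 arrays, KO untreated replicates 2, 3 and 4, KO tumor replicates 3, 5 and 6, WT untreated replicate 3 and WT tumor replicates 2 and 6 (adjusted p between 0.0506 and 0.0603), nor without the Krt5 arrays (adjusted p = 0.156). By group mean, Upp1 ran in the order KO untreated 3801, KO day 15 2259, WT day 15 881.5, WT day 7 729.5, WT untreated 452.2, KO day 7 429.2, KO tumor 362.2 and WT tumor 226.7. Only KO untreated from KO day 15, KO day 15 from WT day 15 and WT day 7 from WT untreated were neighbours whose arrays did not overlap.

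Other genes moved in the same comparisons as Upp1. The 3 genes with the pattern most like that of Upp1 over the 36 arrays were Trim12a (Pearson r = 0.926), Parp12 (0.926) and Batf2 (0.914), and the 8 groups share the arrays that give these values. In untreated KO against untreated WT colon, 1.78% of all genes and 13 of the 13 measured interferon-stimulated genes were higher. The median log2 difference of these 13 was 4.10, against 0.00 over all genes. Their summed intensity was 17242 to 23278 on untreated KO arrays and 1175 to 2631 on untreated WT arrays, where Ido1, Cxcl9 and Cxcl10 had means below 16, near background. T cell markers were higher as well for 5 of 7, a count that was 3 without the Krt5 arrays (12 of 13 for the interferon-stimulated genes). Their summed intensities were 333 to 444 in untreated KO and 83 to 93 in untreated WT colon, where 6 of the 7 had means below 16. Also higher were 3 of 7 B and plasma cell genes and 2 of 14 monocyte and macrophage genes. In arrays labelled KO day 7, 13 of the 13 interferon-stimulated genes were lower than in untreated KO colon (6.55% of all genes), and in KO tumors 11 were (9.91%). On the same day 7 arrays 10 of 14 monocyte and macrophage genes, 6 of 7 B and plasma cell genes and 5 of 7 T cell genes were lower than in untreated KO colon, and none was higher. Without the Krt5 arrays these counts were 9, 4 and 4. Summed intensities were 769 to 1805 on arrays labelled KO day 7 and 3201 to 4896 in untreated KO colon for monocytes and macrophages, 1916 to 3403 and 5567 to 8042 for B and plasma cells, and 85 to 96 and 333 to 444 for T cells. In KO tumors 1 monocyte and macrophage gene was higher, and 1 B and plasma cell gene and 1 T cell gene were lower. Of all genes, 10.8% were higher and 9.91% lower in KO tumors. In WT tumors 8 of the 13 interferon-stimulated genes were higher than in untreated WT colon (12.5% of all genes). Upp1 was called lower there, a call that ended without any of 6 of the 10 arrays and without the Krt5 arrays. At day 15, replicate 4 had the highest S100a8, a neutrophil gene, of the series in both genotypes, 6239 in KO (with Upp1 at 1218 and Ido1 at 460) and 5585 in WT (with Upp1 at 282 and Ido1 at 23). The part of these cells and genes in the Upp1 values was not tested.

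**Figure D2:**
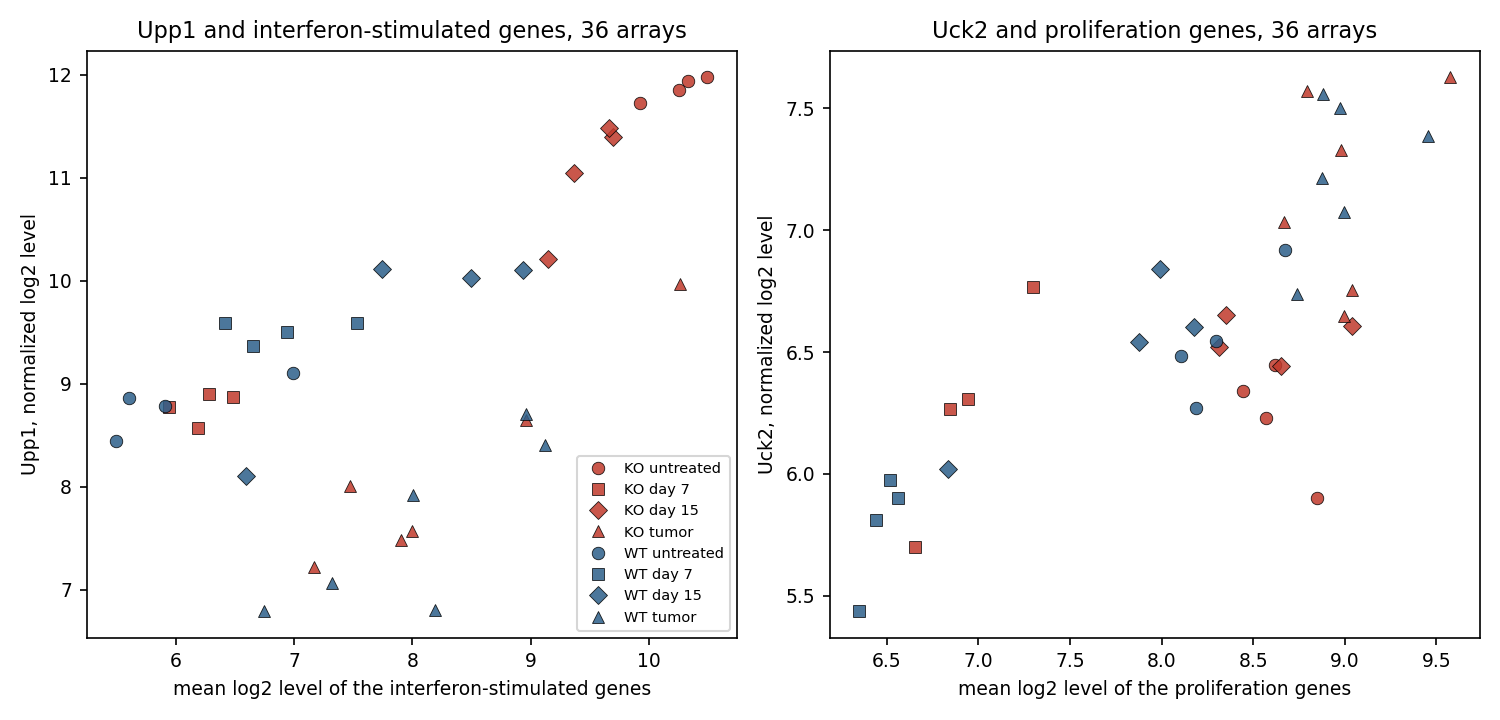
Left, normalized log2 level of Upp1 against the mean log2 level of the 13 interferon-stimulated genes on each array, and right, Uck2 against the mean of the 9 proliferation genes, with KO in red, WT in blue and a symbol for each stage. At the left, the untreated KO arrays have the most Upp1, 1 KO tumor array reaches a similar interferon mean with less Upp1, and tumor arrays have less Upp1 than other arrays with a similar mean. At the right, day 7 arrays have the lowest proliferation means, apart from 1 WT day 15 array among them.

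Uck2, the salvage kinase, was higher in tumors of both genotypes than in untreated colon. It was 97 to 202 in KO tumors (median 147.5), against 80, 73, 84 and 60 in untreated KO colon. All KO tumors lay above all untreated KO arrays, with a log2 difference of 0.93 ± 0.20 (adjusted p = 0.00108). WT tumors ran from 107 over a median of 161 to 190, against 118, 93, 89 and 81 in untreated WT colon, and these ranges overlapped at the low end. WT tumors were higher by 0.69 ± 0.20 log2 units (adjusted p = 0.0125), a call that ended without WT untreated replicate 4 (0.60, adjusted p = 0.0588). The tumor change in KO minus that in WT was 0.24 ± 0.29 (adjusted p = 0.908). WT tumors also exceeded WT day 15 colon, which had 67, 88, 85 and 125 (0.74 ± 0.20, adjusted p = 0.00796, ending without WT day 15 replicate 1, at 0.0673). KO tumors exceeded KO day 15 colon, which had 98, 99, 94 and 113, by 0.60 ± 0.20 (adjusted p = 0.0419). This call rested on single arrays, for it ended without any of 7 of the 10, KO day 15 replicates 1 to 4 and KO tumor replicates 2, 3 and 6 (adjusted p between 0.0556 and 0.118). At day 7 Uck2 was 99, 71, 51 and 74 on the arrays labelled KO, against 38, 56, 45 and 58 on WT arrays, which were the lowest of the 8 groups by mean (49.2). The WT day 7 difference from untreated WT colon was -0.77 ± 0.22 (adjusted p = 0.0727), with all 4 arrays below all 4. By group mean all neighbours in the order of Uck2 levels overlapped, from WT tumor (155.3) and KO tumor (149.7) at the top to KO untreated (74.2) and KO day 7 (73.8) above WT day 7. The WT day 7 difference passed with each array centred on its median (-0.94), with array weights (-0.56) and with no normalization between arrays (-0.94). These were 3 of 13 alternatives, and leaving out any single array did not make it pass. Without the Krt5 arrays it was -0.66 (limma adjusted p = 0.545). On the second brightest Uck2 probe set it did not pass either (-0.70, adjusted p = 0.224).

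The second brightest of the 5 Uck2 probe sets gave like values in tumors, a log2 difference of 1.03 in KO (adjusted p = 0.0016) and 0.96 in WT (0.0029). A dimmer probe set passed in WT tumors only (0.63, adjusted p = 0.0236, against 0.54 and 0.0577 in KO). Another passed in KO tumors only (0.51, adjusted p = 0.0142, against 0.40 and 0.0536 in WT). The dimmest, near background, passed in neither. The 3 genes with the pattern most like Uck2 were Cdk4 (r = 0.901), Nap1l1 (0.898) and Cbx3 (0.896). Of the 9 measured proliferation genes, 2 were higher than in untreated colon in KO tumors (10.8% of all genes) and 5 in WT tumors (12.5%). At day 7 these 9 were lower in each genotype (of all genes, 12.2% in KO and 1.66% in WT were called in either direction). Their summed intensity was 5831 to 9881 in KO tumors and 5013 to 6178 in untreated KO colon, and 5775 to 9132 in WT tumors and 4014 to 5585 in untreated WT colon. Whether the number of dividing cells sets the Uck2 level was not tested.

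Dpyd, the first enzyme of uracil and thymine breakdown, was lower in untreated KO than in untreated WT colon and low in both genotypes from day 15. Its intensity was 116, 102, 67 and 92 in untreated KO colon, against 139, 241, 256 and 332 in untreated WT colon. The groups did not overlap, and the log2 difference was -1.29 ± 0.22, a size of 2.44-fold (adjusted p = 0.000253). With the replicate number as a block, within these groups alone, the adjusted p was 0.0935, and the numbers did not pair these samples. At day 7 the values were 164, 156, 135 and 146 on arrays labelled KO and 162, 186, 140 and 179 on WT arrays. These overlapped and did not pass (-0.17 ± 0.22, adjusted p = 0.87). At day 15 they were 31, 50, 41 and 39 in KO and 43, 40, 27 and 57 in WT, again overlapping (-0.17 ± 0.22, adjusted p = 0.875). KO tumors had 22 to 33 (median 31.5) and WT tumors 19 to 40 (median 23.5), which also overlapped (0.23 ± 0.18).

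Within KO, Dpyd was higher on arrays labelled day 7 than in untreated colon by 0.73 ± 0.22 log2 units (adjusted p = 0.0235). Without KO day 7 replicate 1 or 2 or KO untreated replicate 3 or 4 that call ended (adjusted p between 0.0539 and 0.106), as it did without replicates 1 and 2 together (0.62, adjusted p = 0.174). KO day 15 colon had less Dpyd than untreated KO colon (-1.38 ± 0.22, adjusted p = 0.000868), which ended in a fit of only the groups compared (adjusted p = 0.0671). KO tumors had less by 1.64 ± 0.20 (adjusted p = 5.66e-07). In WT, day 7 did not pass (-0.38 ± 0.22, adjusted p = 0.476). The WT day 15 difference, -2.50 ± 0.22, was among the earlier results known when the genes were listed and is given without a test. WT tumors had less Dpyd than untreated WT colon by 3.16 ± 0.20, a size of 8.92-fold (adjusted p = 4.69e-13), and less than WT day 15 colon by 0.66 ± 0.20 (adjusted p = 0.0169, 0.0511 to 0.0575 without WT day 15 replicate 2 or 4). The change in KO minus that in WT was 1.52 ± 0.28 for tumors (adjusted p = 0.0022). The day 7 value of 1.12 ± 0.31 (adjusted p = 0.0465) passed also without KO untreated replicate 1, WT untreated replicate 1 or WT day 7 replicate 1, but not without any of the other 13 of the 16 arrays (adjusted p between 0.0566 and 0.124). At day 15 the value was 1.12 ± 0.31 as well (adjusted p = 0.213, and 0.0464 without WT untreated replicate 1). It contains the known WT day 15 difference, so these p-values are no fresh test. These interactions share the untreated arrays, where the genotypes differ. Every other Dpyd test that uses untreated WT or WT day 15 colon also shares arrays with that known difference.

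By group mean, Dpyd ran in the order WT untreated 242, WT day 7 166.8, KO day 7 150.2, KO untreated 94.2, WT day 15 41.8, KO day 15 40.2, KO tumor 29.7 and WT tumor 25.3. Neighbours without overlap were KO day 7 from KO untreated and KO untreated from WT day 15. The dimmer second probe set of Dpyd gave smaller differences, -0.74 ± 0.19 for untreated KO against untreated WT colon (adjusted p = 0.0385), -0.53 for KO tumors (0.0385) and -1.28 ± 0.18 for WT tumors (4.66e-06). For arrays labelled KO day 7 (0.46, adjusted p = 0.139) and for KO day 15 (-0.62, adjusted p = 0.123) it did not pass, nor did it for the interactions. The 3 genes with the pattern most like Dpyd were Itih2 (r = 0.931), Bche (0.916) and Tppp (0.905). Of the 8 measured smooth muscle genes, 7 fell in KO tumors (9.91% of all genes) and 8 in WT tumors (10.1%). Their median log2 differences were -1.67 and -1.92, while none of the 8 passed at day 15 (medians -0.91 in KO and -1.10 in WT). Absorptive colonocyte genes fell for 8 of 12 in KO tumors and 6 of 12 in WT tumors, with 1 higher in each and none called at day 15. The part of tissue make-up in the Dpyd values was not tested.

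Dpys, the second breakdown enzyme, lay between 7 and 12 on every array and was called in none of the 15 comparisons, so its level was near background and no difference was detectable. Upb1, the last enzyme, was higher in tumors than at day 15 in both genotypes. It was 75 to 210 in KO tumors (median 118.5), against 28, 24, 40 and 11 in KO day 15 colon, and 56 to 219 in WT tumors (median 151.5), against 21, 20, 35 and 13 in WT day 15 colon. All tumors of a genotype lay above all its day 15 arrays, by 2.30 ± 0.44 log2 units in KO (adjusted p = 0.000561) and 2.56 ± 0.44 in WT (adjusted p = 7.84e-05). Untreated colon lay between by group mean only, with 73, 81, 34 and 47 in KO and 28, 122, 111 and 55 in WT. In each genotype these arrays overlapped both the day 15 and the tumor arrays. At day 7 Upb1 was 36, 57, 48 and 69 on arrays labelled KO and 31, 118, 124 and 105 on WT arrays. Against untreated colon, tumors did not pass (1.01 ± 0.44 in KO, adjusted p = 0.103, and 0.97 ± 0.44 in WT, adjusted p = 0.111). The WT value moved with single arrays. It was 1.21 (adjusted p = 0.0377) without WT tumor replicate 6, the WT tumor array with the lowest Upb1, 0.57 (adjusted p = 0.41) without WT untreated replicate 1 and 0.18 (adjusted p = 0.854) without the Krt5 arrays. Day 15 against untreated colon gave -1.28 ± 0.48 in KO (adjusted p = 0.178) and -1.59 ± 0.48 in WT (adjusted p = 0.0582). The WT value passed without WT untreated replicate 1 or WT day 15 replicate 3 (adjusted p between 0.0248 and 0.0321) and without the Krt5 arrays (-2.38, adjusted p = 0.0166). The untreated WT arrays with high Krt5 had 28 and 55 Upb1 and the other untreated WT arrays averaged 116.5. Between genotypes Upb1 passed at none of the 4 stages. Its neighbours in the order of group means all overlapped, and the 3 genes most like it were Tmem9 (r = 0.881), Mia (0.855) and Bivm (0.847).

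**Figure D3:**
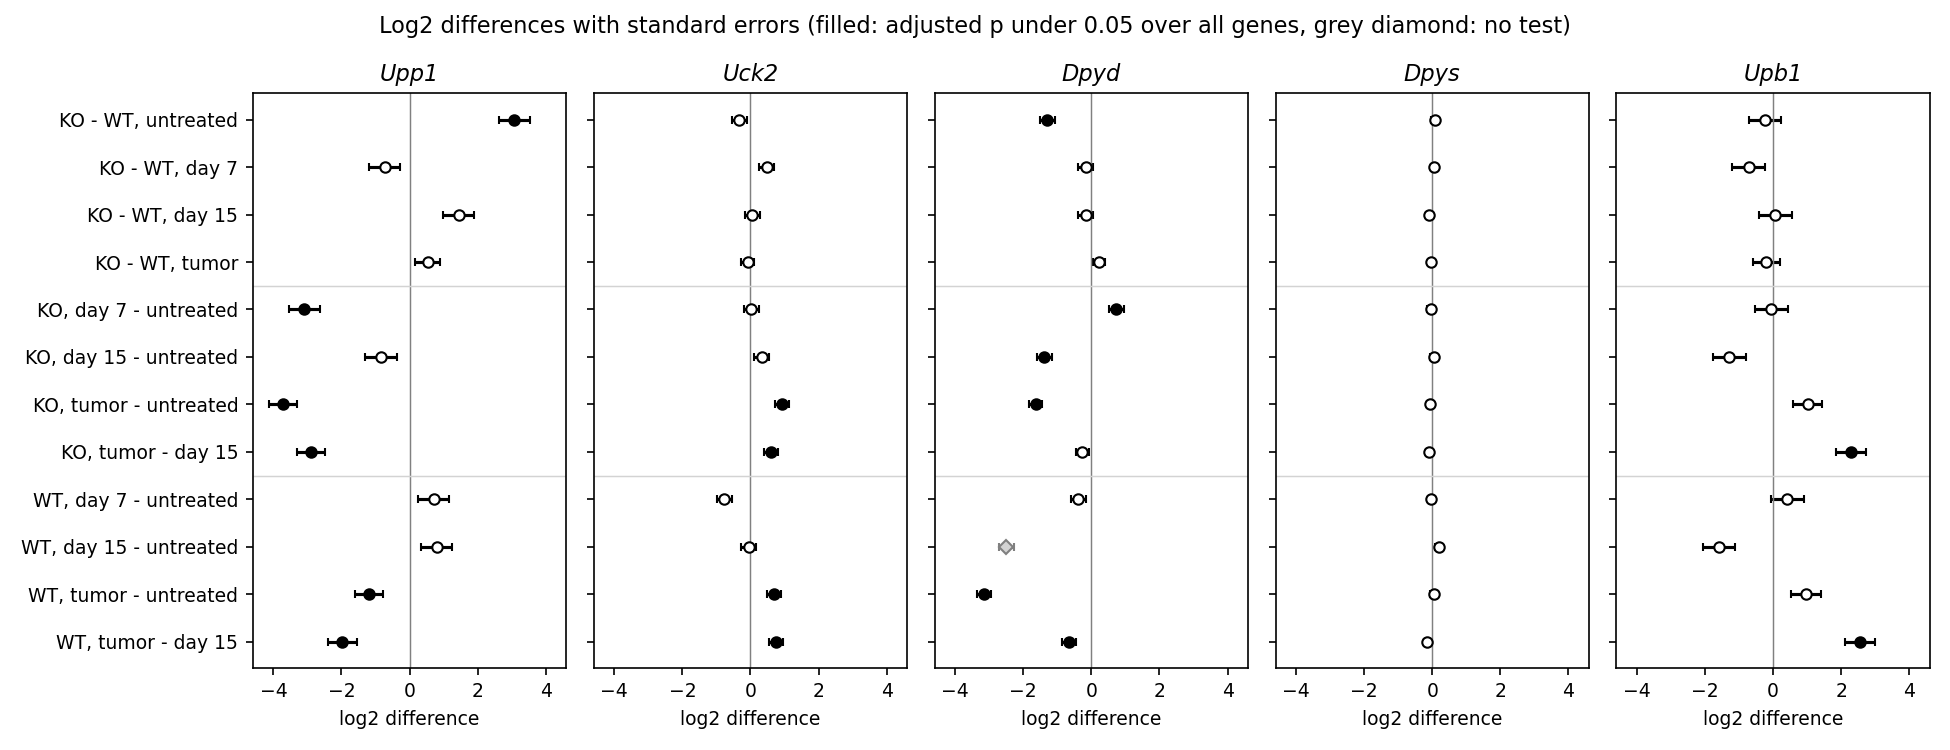
Log2 differences (points) with standard errors (bars) of the 5 measured genes in 12 comparisons, KO against WT at each stage at the top, then stages within KO, then within WT. Filled points passed an adjusted p of 0.05 over all genes, and the grey diamond is the WT day 15 difference of Dpyd, given without a test. Upp1 stands at 3.08 in untreated KO against untreated WT colon and at -3.72 in KO tumors, Dpyd falls in KO at day 15 and in tumors of both genotypes, and Dpys lies near 0 throughout.

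Counted over the 5 measured genes, 1 was higher (Upp1) and 1 lower (Dpyd) in untreated KO than in untreated WT colon, where 2.27% of all genes were called, 1.78% higher and 0.485% lower. None was called between the genotypes at day 7 (0.287% of all genes), at day 15 (0.222%) or in tumors (0.0526%). In arrays labelled KO day 7 against untreated KO colon, 1 was higher and 1 lower (12.2% of all genes, 5.64% higher and 6.55% lower), and at KO day 15 1 was lower (0.807%, 0.322% lower). In KO tumors 1 was higher and 2 were lower (20.7%, 10.8% higher and 9.91% lower). In WT, 0 were called at day 7 (1.66%), and in tumors 1 was higher and 2 were lower (22.7%, 12.5% higher and 10.1% lower). At WT day 15 (3.37% of all genes, 1.28% lower) Dpyd is not counted, since its value there was known when the genes were listed, and none of the other 4 was called. Tumors against day 15 gave 2 higher and 1 lower in KO (14.6%, 8.56% higher and 6.05% lower) and 2 higher and 2 lower in WT (20%, 12.2% higher and 7.76% lower). For the change in KO minus that in WT, 1 was higher (Dpyd) and 1 lower (Upp1) at day 7 (2.36% of all genes, 0.638% higher and 1.73% lower), 0 at day 15 (0.0819%), and 1 higher and 1 lower in tumors (0.784%, 0.0702% higher and 0.714% lower), again Dpyd and Upp1. Comparisons within a genotype share its untreated arrays, and the genes were listed with earlier results known, so these counts are a description.

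In the rest of pyrimidine and purine metabolism, untreated KO colon had 6 of 51 measured genes above untreated WT colon, where 1.78% of all genes were higher. Of the 16 measured other salvage and thymidylate genes, 2 were higher, Cmpk2, a mitochondrial pyrimidine nucleotide kinase that interferon induces, and Samhd1, which hydrolyses deoxynucleotide triphosphates. Cmpk2 ran from 64 to 184 in untreated KO colon and from 11 to 26 in untreated WT colon. Samhd1 averaged 1271 ± 180 in untreated KO colon and 427.2 ± 61.8 in untreated WT colon (SD, n = 4 each), a log2 difference of 1.55 ± 0.27 (limma adjusted p = 0.000397). Of the 9 purine genes, 3 were higher, the guanine deaminase Gda (1.15 ± 0.19, adjusted p = 0.000125), the adenosine deaminase Ada and the purine nucleoside phosphorylase Pnp. Ada ended without KO untreated replicate 3 or WT untreated replicate 2 (adjusted p up to 0.0965), and Pnp without any of the 8 arrays but WT untreated replicate 2 (up to 0.188). The list of 11 genes of de novo synthesis, which builds pyrimidines from small precursors, also holds CTP synthases and nucleotide kinases of later steps. Of these 11 genes 1 was higher, the CTP synthase Ctps2, at an adjusted p of 0.0498 that was 0.499 without the Krt5 arrays. None of the 9 nucleotidases and downstream enzymes and none of the 6 nucleoside transporters passed. At day 15, Cmpk2 and Ada were called higher in KO than in WT (adjusted p = 0.0293 and 0.0143). Both calls ended without KO day 15 replicate 2, WT day 15 replicate 1 or WT day 15 replicate 3, and that of Cmpk2 also without KO day 15 replicate 1 (adjusted p up to 0.116 for Cmpk2 and 0.0877 for Ada).

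At day 7, relative to untreated colon, 9 of the 16 other salvage and thymidylate genes were lower on arrays labelled KO and 6 on WT arrays, and none was higher (of all genes, 12.2% and 1.66% were called in either direction). Without the Krt5 arrays these counts were 8 and 1. The 9 proliferation genes were all lower in both comparisons, and without the Krt5 arrays 9 were lower on arrays labelled KO and 6 on WT arrays. Whether fewer dividing cells account for these differences was not tested. The thymidine kinase Tk1 fell by 2.09 ± 0.32 log2 units on arrays labelled KO (adjusted p = 3.61e-05) and by 2.07 ± 0.32 in WT (adjusted p = 0.000136, and 0.0514 without the Krt5 arrays). Thymidylate synthase, Tyms, fell by 1.37 ± 0.22 on arrays labelled KO. In WT, the ribonucleotide reductase subunit Rrm1 fell by 1.64 ± 0.22 and the dUTPase gene Dut by 1.26 ± 0.21, of which Dut ended without the Krt5 arrays (adjusted p = 0.152). Samhd1 was lower by 1.89 ± 0.27 on arrays labelled KO, and the change of Cmpk2 on these arrays differed from that in WT (-2.73 ± 0.55, adjusted p = 0.00398). Of the de novo list 3 genes were lower on arrays labelled KO, Ctps2, Nme1 and Nme7, and 1 in WT, Nme7. The Nme genes encode nucleoside diphosphate kinases. Purine genes were lower for 4 of 9 on arrays labelled KO, among them Ada (-1.51 ± 0.17), Pnp and Pnp2, and for 1, Ada, in WT. The WT calls of Nme7 and Ada ended without the Krt5 arrays (adjusted p = 0.507 and 0.627). At day 15, 0 genes of the 5 lists passed in KO. In WT, Gda rose at day 15, to 1387 ± 331, against 488.2 ± 94.5 in untreated colon (SD, n = 4 each, limma adjusted p = 9.16e-06). The other 3 calls there, Lacc1, Slc29a1 and Nt5c3b, each ended without any of 4 or 5 of the 8 arrays.

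In tumors, 5 of the 11 genes of the de novo list were higher in KO and 6 in WT than in untreated colon of the same genotype. Of this list 0 were lower, and 10.8% and 12.5% of all genes were higher. In KO and WT tumors, 9.91% and 10.1% of all genes were lower. Abat, downstream of Upb1, was lower in both. The CTP synthase Ctps rose by 1.39 ± 0.26 in KO tumors and 1.15 ± 0.26 in WT tumors, and Nme4 by 1.06 ± 0.25 and 1.14 ± 0.25. Cad, Dhodh and Umps of the same list stayed closer to untreated colon. Their mean log2 levels were 6.06, 4.95 and 6.97 in KO tumors, against 6.02, 4.92 and 6.94 in untreated KO colon. In WT tumors they were 6.26, 5.08 and 7.05, against 6.06, 4.85 and 7.01 in untreated WT colon. The list had median log2 differences of 0.20 in KO tumors and 0.45 in WT tumors, against 0.01 and 0.02 over all genes. Of the 16 other salvage genes, 3 were higher and 2 lower in KO tumors, and 5 higher and 1 lower in WT tumors. The ribonucleotide reductase subunit Rrm2 rose by 1.21 ± 0.24 in KO tumors and by 1.24 ± 0.24 in WT tumors, while Samhd1 fell by 2.10 ± 0.25 and by 0.98 ± 0.25. Abat, which carries the beta-alanine released by Upb1 a step further, averaged 126 ± 69.7 in KO tumors and 1066 ± 122 in untreated KO colon, and 121 ± 98.7 in WT tumors and 1162 ± 287 in untreated WT colon (SD, n = 6 tumors and 4 untreated). Its log2 differences were -3.22 ± 0.40 in KO (adjusted p = 8.93e-07) and -3.53 ± 0.40 in WT (adjusted p = 1.88e-07). Of the 9 nucleotidases and downstream enzymes, 3 fell and 1 rose in KO tumors, and 3 fell in WT tumors. The pyrimidine nucleotidase Nt5c3 fell by 0.94 ± 0.19 in KO tumors and by 1.26 ± 0.19 in WT tumors, and the purine nucleotidase Nt5c2 rose by 1.07 ± 0.19 in KO tumors. Purine genes were higher for 3 of 9 in KO tumors, Aprt, Hprt and Pnp. The KO tumor call of Pnp ended without any of 5 single arrays (limma adjusted p up to 0.0915). In WT tumors 5 purine genes were higher, led by Pnp (0.63 ± 0.10) and the adenine salvage enzyme Aprt (0.53 ± 0.09), with 1 lower. No gene of the 5 lists was called between KO and WT tumors.

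**Figure D4:**
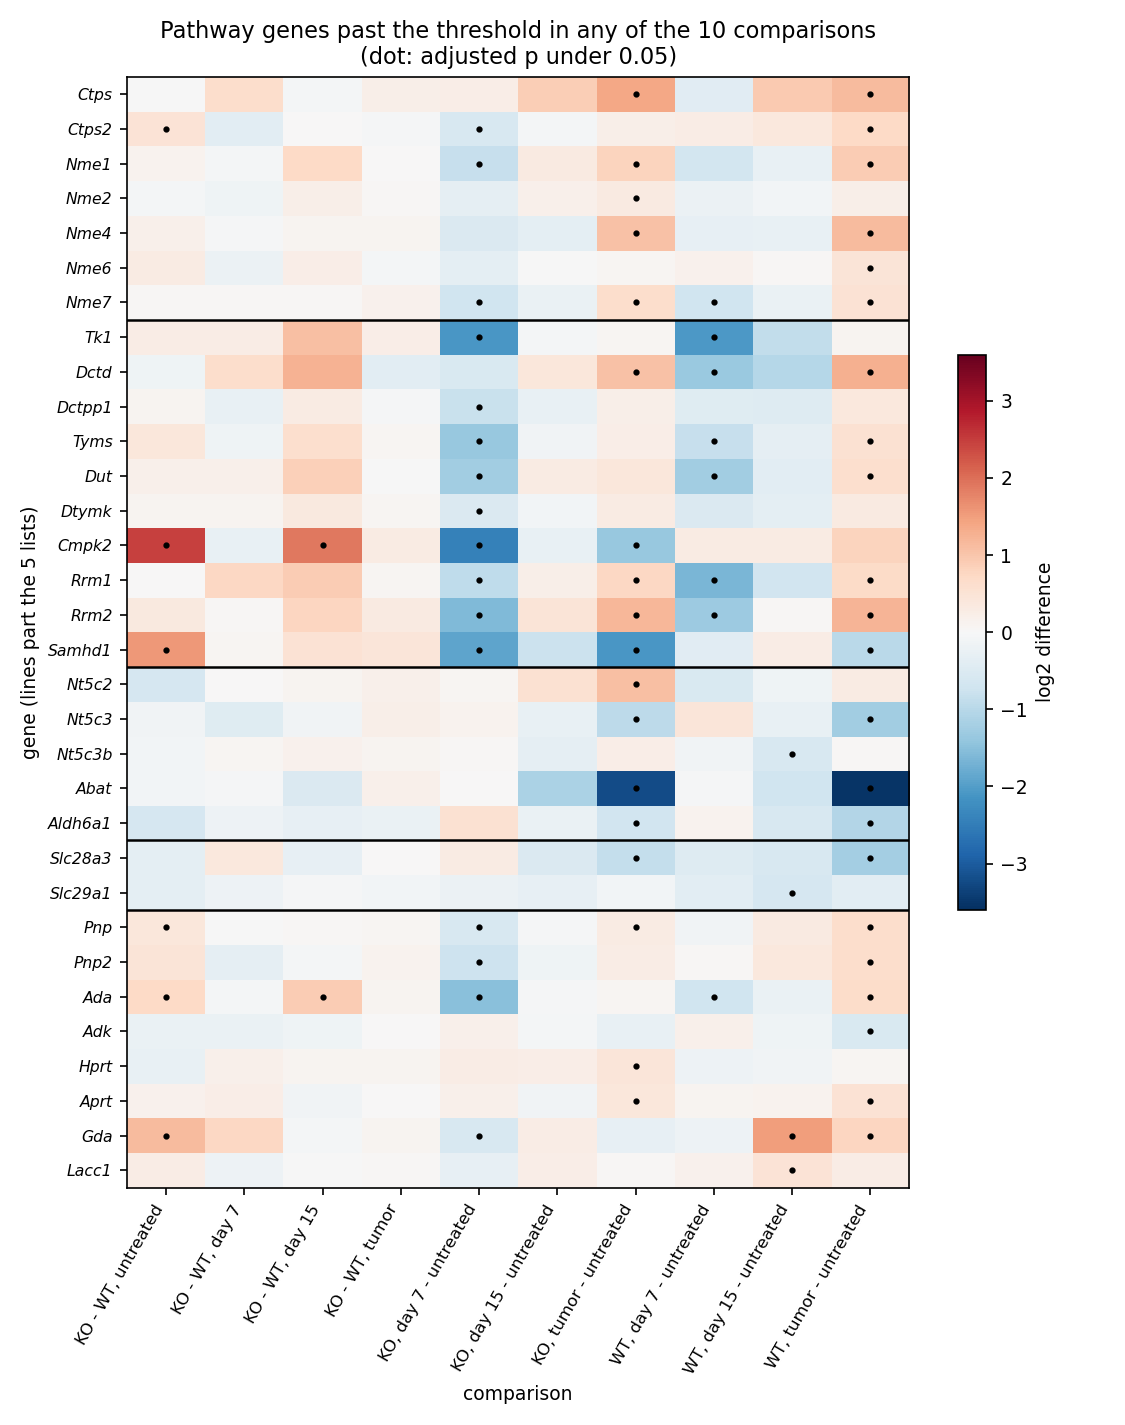
Log2 differences (colour, red higher and blue lower) of the 32 genes of the 5 lists that passed an adjusted p of 0.05 in at least 1 of the 10 comparisons shown, with a dot where the gene passed. Lines part the lists, from the top de novo synthesis, other salvage and thymidylate genes, nucleotidases and downstream breakdown, transporters and purine genes. The columns of day 7 against untreated are blue for most of the salvage genes, and Abat is the darkest blue in both tumor columns.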

How the data were processed

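Colon RNA of 36 samples was measured on Affymetrix HT MG-430 PM arrays. The authors deposited 1 intensity per probe set and array, linear and in whole numbers. How background was corrected and probes were combined is not stated in the sources used here. The deposited matrix held 45037 probe sets with values from 4 to 14185 and array medians of 14 to 16. Arrays have no read depth, so their number and signals near background limit precision. Groups and replicate numbers came from the sample labels.

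Values were log2 transformed after adding 1 and quantile normalized. Probe sets with 1 gene symbol (28898) were kept, and each gene took its brightest probe set by mean log2 value across arrays. One limma 3.58.1 model in R 4.3.3, with a mean for each of the 8 groups and an intensity trend, gave 15 comparisons, with Benjamini-Hochberg adjustment over 17097 genes. It was tested on simulated data.

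The genes and lists were chosen with earlier results of these data known. Named were the listed genes, Il17rc, Krt5, up to 3 genes of each pathway list with the smallest adjusted p in a comparison, and the 3 genes with the highest Pearson correlation to each gene. Of 58 pathway calls named by this rule, 17 ended without a single array, and most of these were left out of the text or are given with that limit. Genes of marker lists and Cxcl9, Cxcl10, Ido1 and S100a8 were named after their values were seen.

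Same-numbered replicates deviated together, with every pair correlated above 0.1, for WT day 7 with WT untreated (0.165 to 0.397) and KO with WT at day 15 (0.173 to 0.8), and in no other comparison. The labels state no pairing. Alternatives were a pseudocount of 16, centring or no normalization between arrays, dim genes left out, other probe set rules, no intensity trend, array weights, only the groups compared, blocks by replicate or title code, and leaving out each array. Leaving out sets of arrays with high Krt5, high Il17rc, Y-linked transcripts or smooth muscle transcripts, or replicate 4 at day 15, and no normalization were chosen after seeing the data.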

Additional observations from a re-analysis of the deposited data

Results flagged for a closer look

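On a test of the array farthest from its group, 4 of 40 combinations of gene and group stood out. The test's chance rate of about 1 in 20 does not hold for tied whole numbers such as those of Dpys, so the count is not set against it. Upp1 on WT day 15 replicate 4 was 282, with the other WT day 15 arrays between 1029 and 1115. Dpys was 9 on KO day 7 replicate 3 (8 on the others), 8 on KO day 15 replicate 3 (9 on the others) and 10 on KO tumor replicate 5 (7 to 8 on the others), all near background and a unit or so apart.

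The change from untreated colon differed between genotypes, by limma interaction terms, for Dpyd and Upp1. The change in KO minus that in WT was 1.12 at day 7 and 1.52 in tumors for Dpyd, and -3.81 at day 7 and -2.54 in tumors for Upp1. The 4 values share the untreated arrays of both genotypes, where both genes differed. Neither gene was called between genotypes at day 7 or in tumors. The Dpyd day 7 value no longer passed without any of 13 of the 16 arrays, nor the Upp1 tumor value without any of 9 of the 20. The second Dpyd probe set passed for neither interaction.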

How the results depend on the processing

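Of 22 calls of the 5 genes, leaving out the WT day 15 difference of Dpyd, which was known when the genes were listed, 10 were kept under every alternative run. For Upp1 these are untreated KO against untreated WT colon, KO day 7, KO tumors and the day 7 interaction, for Dpyd the tumors of both genotypes and the tumor interaction, for Uck2 KO tumors, and for Upb1 the tumors of both genotypes against day 15. Dimmer probe sets read alone were not among the alternatives. The second Dpyd probe set did not pass for the tumor interaction (0.75, limma adjusted p = 0.309), nor did a dimmer Uck2 probe set in KO tumors (0.54, adjusted p = 0.0577). Over 1808 values of single genes under alternatives, 1713 kept their side of the threshold, 78 lost and 17 gained a call, and 61 changed sign where neither passed. The number of called genes moved as follows. With the replicate number as a block it was 1 for the day 7 and tumor interactions (2 without the block), 0 for KO day 15 (1), 1 for KO against WT at day 15 (0), 1 for KO tumor against day 15 (3), 1 for untreated KO against WT (2) and 2 for WT tumor against day 15 (4). The block changed no other count of these genes by over 1.5 times. With only the groups compared it was 1 for the tumor interaction and 0 for KO day 15. Centring gave 1 for the day 7 interaction, 1 for KO day 7 and 1 for WT day 7 (0), and no normalization gave 1 for WT day 7 and 2 for WT day 15 (1, which is Dpyd). Array weights gave 1 for the day 15 interaction (0), 1 for KO against WT at day 7 (0), 2 for WT day 15 and 1 for WT day 7. Testing every probe set gave 1 for the day 7 interaction and leaving out dim genes 2 for WT day 15. A block by the letter in the sample titles gave 1 for the day 7 interaction and 1 for WT tumors (3), and one by their number 1 for the tumor interaction and 1 for WT tumors. Without the Krt5 arrays the counts were 1 for the day 7 and tumor interactions, 1 for KO day 7 and 2 for WT day 15. Without the high Il17rc arrays they were 1 for the day 7 interaction and for KO day 7, and without the WT tumor array rich in smooth muscle 1 for the tumor interaction. Leaving out each array gave 1 to 2 for KO day 7, 1 to 2 for WT day 15, 1 to 4 for WT tumors, 0 to 1 for the day 15 interaction, and 1 to 2 for the day 7 and tumor interactions. The cause of these moves was not tested. Counts over all genes, which set the background shares, moved more. Untreated KO against WT had 388 (227 to 894), KO against WT 49 at day 7 (0 to 3493), 38 at day 15 (2 to 118) and 9 in tumors (1 to 21). Against untreated colon, KO had 2084 at day 7 (1298 to 4851), 138 at day 15 (2 to 630) and 3545 in tumors (2603 to 5695), and WT had 283 (66 to 1447), 577 (47 to 942) and 3878 (2395 to 5487). Tumors against day 15 had 2497 in KO (187 to 3553) and 3414 in WT (1481 to 4578). The interactions had 404 at day 7 (206 to 2504), 14 at day 15 (1 to 97) and 134 in tumors (83 to 337). With the replicate block, WT day 7 had 142.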
